A study of Mus musculus with 36 samples.

Results

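The effect of TFEB overexpression was described in CCR2-positive macrophages sorted from mouse hearts after ischemia and reperfusion, across all genes of the count table. By the column labels, 4 CCR2pos mac-TFEB libraries (TFEB-TG 1 to 4) were set against 5 CCR2pos CX3CR1-Cre libraries (TFEB-wt 1 to 5), that is 9 of the 36 libraries of the series. Per the labels, mac-TFEB mice carried Cx3cr1-er-Cre, TFEB-LoxP-STOP, a TFEB cassette behind a floxed stop sequence, and Td-Tomato-LoxSTOP. CX3CR1-Cre mice carried Cx3cr1-er-Cre and Td-Tomato-LoxSTOP without the cassette. Both groups were fed tamoxifen, with 7 days of induction before 90 minutes of ischemia, and macrophages were sorted 7 days after the injury. The sources used here state neither age nor strain, nor whether each library is a separate animal. The p-values therefore measure the spread between libraries only, some of which may be technical. In the main edgeR fit that spread is taken from all 36 libraries of the series. Libraries of the same genotype and number count as separate there. A further 9 CCR2pos libraries, 4 TFEB-TG Cre-neg and 5 TFEB-wt Cre-neg, were used for genes that differ with the cassette where the labels say that Cre is lacking. The growth protocol names Cx3cr1-er-Cre for all samples, and it is not stated how Cre-neg cells were told from the others.

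TFEB is a basic helix-loop-helix leucine zipper transcription factor that mTORC1 holds in the cytoplasm of fed cells. In the nucleus it binds the CLEAR element, whose core is CACGTG, in promoters of genes for lysosomal enzymes, the proton pump and autophagy. CCR2 is the chemokine receptor with which monocytes leave the bone marrow, and CCR2-positive cardiac macrophages are replenished from monocytes, whereas the CCR2-negative ones are largely resident.

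Total counts ran from 14942156 to 22521840 per library (median 19617072), and each library detected 12359 to 12753 of the 12795 genes in the table. Csf1r, the CSF1 receptor gene, averaged 2648 CPM in mac-TFEB and 2832 CPM in CX3CR1-Cre libraries, and the macrophage glycoprotein gene Adgre1 3194 and 3174 CPM (CPM, counts scaled to library size with TMM factors). Xist, read from the inactive X chromosome, was present in 2 of 4 mac-TFEB and 4 of 5 CX3CR1-Cre libraries. The T cell gene Cd3e stood at 28.5 CPM in mac-TFEB library 2 and at 27.2 CPM in CX3CR1-Cre library 3. CX3CR1-Cre library 3 was also the least like the rest, with a median Spearman correlation to the other 8 libraries of 0.9665, where the others had 0.975 to 0.982. Below, a value ± another is a log2 fold change of mac-TFEB over CX3CR1-Cre with its standard error unless CPM is named. Genes are called where edgeR's adjusted p (quasi-likelihood F-test, Benjamini-Hochberg over all 12795 genes) was under 0.05.

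Tfeb was higher in every mac-TFEB library, and outside it 4 genes were called, all of them neighbours on chromosome 2. Gfi1b, a zinc-finger repressor of red-cell and platelet development, rose to 26.8 CPM, against 0.507 CPM in CX3CR1-Cre libraries. Mrps2, a protein of the small mitochondrial ribosomal subunit, Gtf3c5, part of TFIIIC, which recruits RNA polymerase III, and the gene model Gm10134 fell by 1.10 to 1.18 on the log2 scale. No gene of lysosomes or autophagy other than Tfeb was called. In all, 5 of 12795 genes (0.0391%) were called, 2 higher (0.0156%) and 3 lower (0.0234%). At an unadjusted p under 0.05 there were 577 (4.51%), 360 higher (2.81%) and 217 lower (1.7%).

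Tfeb (ENSMUSG00000023990, chromosome 17, 47737030 to 47792419, plus strand, GRCm38) had 224.8, 279.7, 60.45 and 68.16 CPM in mac-TFEB libraries 1 to 4, against 4.42, 11.5, 5.06, 6.97 and 4.76 CPM in CX3CR1-Cre libraries 1 to 5. The groups did not overlap, as was the case for 261 genes (2.04%), with all mac-TFEB libraries above for 152 (1.19%) and below for 109 (0.852%). Libraries 1 and 2, both without Xist, held more Tfeb than libraries 3 and 4, both with Xist. Among libraries with Xist alone the difference was 3.17. The means were 158 ± 111 CPM and 6.54 ± 2.94 CPM (SD, n = 4 and 5), which gave 4.58 ± 0.48 (edgeR adjusted p = 1.2e-06). On log2(CPM + 0.5) the difference was 4.26, with p = 0.00794 in a two-sided exact permutation test, the smallest that splits of 4 against 5 libraries can give. Counts do not separate cassette from endogenous transcripts, and the labels do not say from which species the cassette was taken. In a fit to the 9 libraries alone the value was the same with an adjusted p of 0.0728.

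Cx3cr1, the fractalkine receptor gene that gives the Cre driver its name, averaged 387 ± 26.3 CPM in mac-TFEB and 428 ± 110 CPM in CX3CR1-Cre libraries (SD, n = 4 and 5; two-sided exact permutation p = 0.627). Ccr2 averaged 651 ± 243 CPM in mac-TFEB and 729.9 ± 228 CPM in CX3CR1-Cre libraries (SD, n = 4 and 5; two-sided exact permutation p = 0.595). In the CCR2neg fraction Ccr2 stood at 53.8 CPM in mac-TFEB and 47.2 CPM in CX3CR1-Cre libraries, so the sort is visible in both genotypes. Neither gene was called between the groups, at -0.15 ± 0.20 for Cx3cr1 and -0.16 ± 0.35 for Ccr2.

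**Figure D1:**
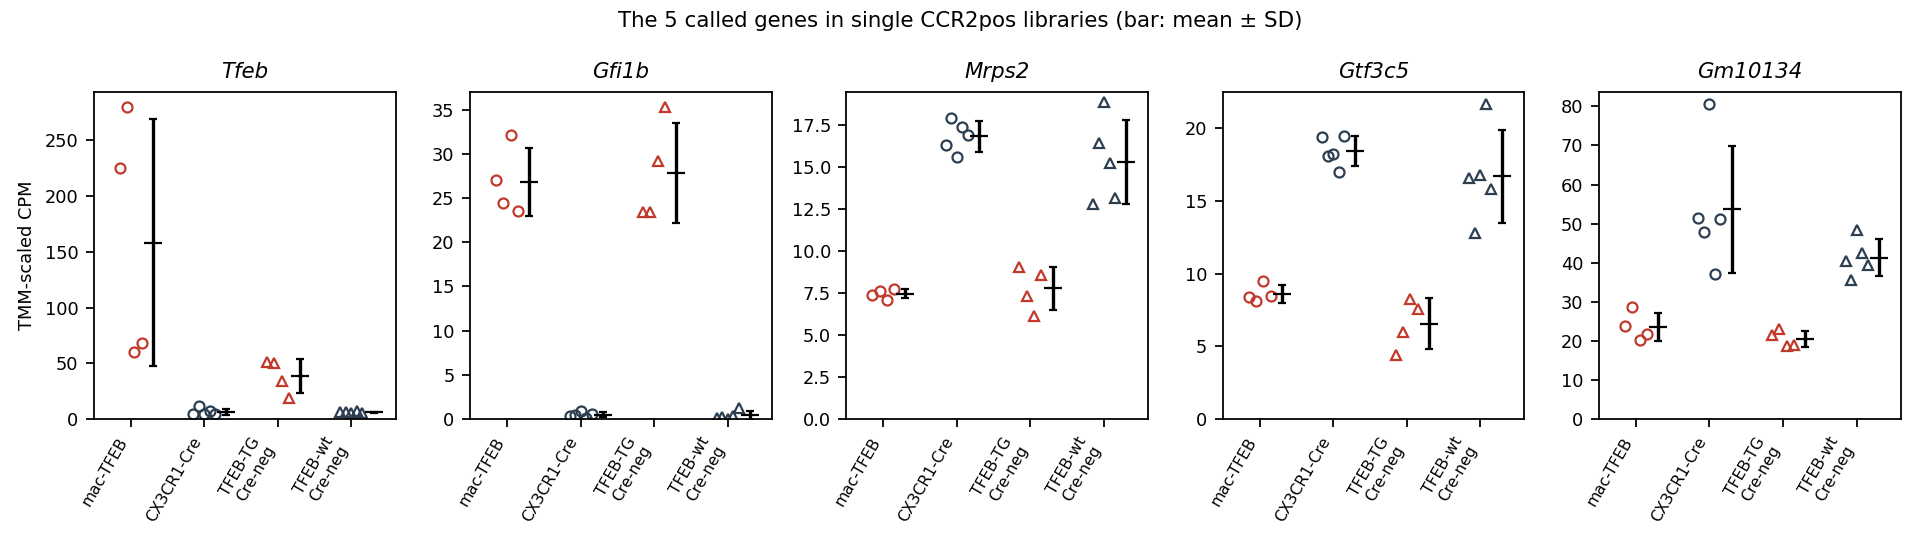
TMM-scaled CPM of the 5 called genes in single CCR2pos libraries (y axis), by group (x axis), with the mean ± SD as a bar beside the points. For Gfi1b, Mrps2, Gtf3c5 and Gm10134 the TFEB-TG Cre-neg libraries lie on the same side of every CX3CR1-Cre library as the mac-TFEB libraries do, with 3 of 4 below every mac-TFEB library for Gtf3c5 (4.395 to 7.605 CPM). For Tfeb they lie between 19.1 and 51.0 CPM, below every mac-TFEB library.

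Gfi1b (ENSMUSG00000026815, chromosome 2, 28609450 to 28621982, minus strand) had 27.1, 24.5, 32.1 and 23.6 CPM in mac-TFEB libraries 1 to 4, against 0.377, 0.510, 0.926, 0.103 and 0.619 CPM in CX3CR1-Cre libraries 1 to 5. Unlike Tfeb, it was even across the 4 mac-TFEB libraries. The difference was 5.76 ± 0.52 (edgeR adjusted p = 2.4e-08). TFEB-TG Cre-neg libraries had 23.4, 23.4, 29.2 and 35.2 CPM of Gfi1b and TFEB-wt Cre-neg libraries 0.0510 to 1.30 CPM, a difference of 6.08 ± 0.53 (edgeR adjusted p = 7.7e-09).

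Mrps2 (ENSMUSG00000035772, chromosome 2, 28468066 to 28471178, plus strand) had 7.38, 7.60, 7.11 and 7.77 CPM in mac-TFEB libraries, against 16.3, 17.9, 15.6, 17.4 and 16.9 CPM in CX3CR1-Cre libraries (-1.17 ± 0.17, edgeR adjusted p = 2.6e-04). Gtf3c5 (ENSMUSG00000026816, chromosome 2, 28566311 to 28583751, minus strand) had 8.38, 8.10, 9.49 and 8.49 CPM in mac-TFEB libraries, against 19.4, 18.1, 18.2, 17.0 and 19.5 CPM in CX3CR1-Cre libraries (-1.10 ± 0.17, edgeR adjusted p = 8.7e-04). Mrps2 was thus at 0.444 times and Gtf3c5 at 0.467 times the CX3CR1-Cre level, with little spread in either group. Gm10134 (ENSMUSG00000063611, chromosome 2, 28506095 to 28506475, plus strand), named after its values were seen, had 23.8, 28.6, 20.3 and 21.7 CPM in mac-TFEB libraries, against 51.5, 47.9, 80.6, 37.0 and 51.1 CPM in CX3CR1-Cre libraries (-1.18 ± 0.23, edgeR adjusted p = 0.0398). Its call was lost on leaving out any library but CX3CR1-Cre 4, with an adjusted p of up to 0.304, while Gfi1b, Mrps2 and Gtf3c5 were called without any single library.

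The 4 called genes on chromosome 2 span 153.9 kb, from 28468066 to 28621982. Within 500 kb of Gfi1b on either side 14 genes were measured, and the 7 at lower coordinates (Olfm1, Gm13373, Mrps2, Gbgt1, Gm10134, Ralgds and Gtf3c5) were all lower in mac-TFEB libraries with an unadjusted p under 0.05, where 1.7% of all genes were (edgeR). The 3 lower calls are among them. None of the 6 at higher coordinates (Tsc1, Spaca9, Ak8, Gtf3c4, Ddx31 and Ttf1) had such a p, and their values ran from -0.31 to 0.45. Olfm1, a secreted olfactomedin, had 9.11, 10.8, 10.3 and 13.1 CPM in mac-TFEB libraries, against 18.2, 24.98, 29.6, 19.3 and 21.96 CPM in CX3CR1-Cre libraries (-1.07 ± 0.26, edgeR adjusted p = 0.220). Gbgt1, a glycosyltransferase gene, was at -1.27 ± 0.28 (edgeR adjusted p = 0.0991) and Ralgds, an exchange factor for Ral GTPases, at -0.56 ± 0.20. Their groups did not overlap either.

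**Figure D2:**
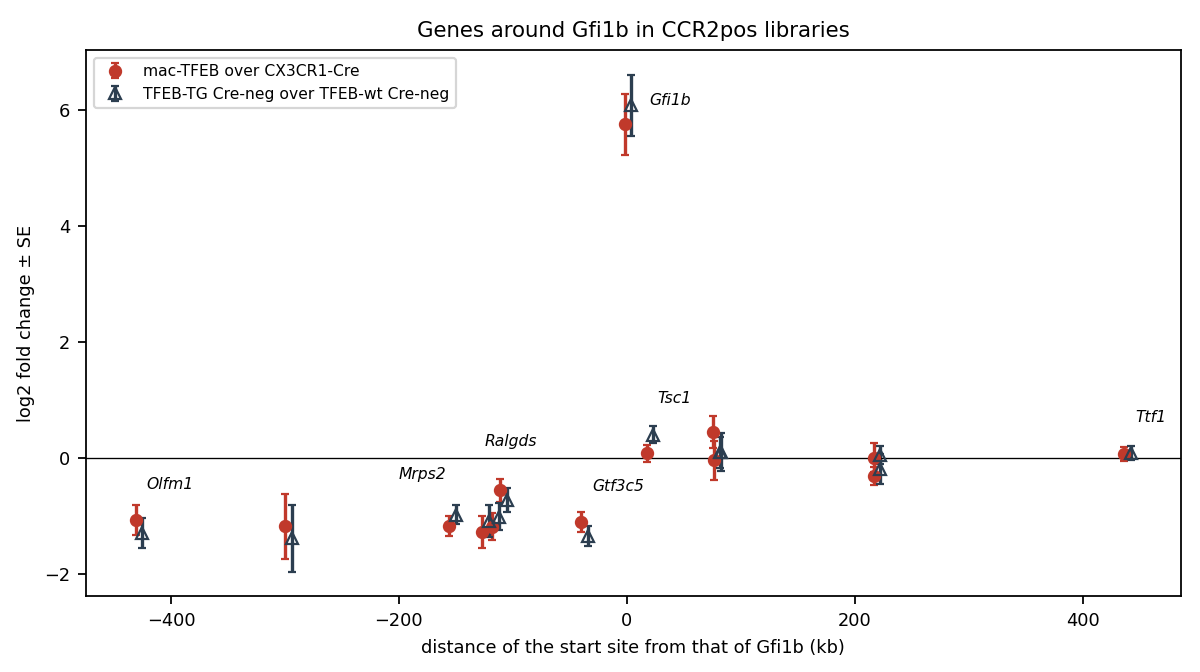
Log2 fold change ± standard error (y axis) of the 14 measured genes within 500 kb of Gfi1b against the distance of their start site from that of Gfi1b in kb (x axis), for mac-TFEB over CX3CR1-Cre (filled circles) and for TFEB-TG Cre-neg over TFEB-wt Cre-neg (open triangles), all CCR2pos. Gfi1b stands near 6 in both comparisons, the 7 genes at lower coordinates lie below 0 and the 6 at higher coordinates scatter around 0.

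The design text removes mRNAs that differ with the cassette alone. That comparison called 4 genes (0.0313%) in CCR2pos Cre-neg libraries, namely Gfi1b, Tfeb, Gtf3c5 and Mrps2, and 380 (2.97%) had an unadjusted p under 0.05 (edgeR). Without Cre, Tfeb had 50.95, 50.5, 34.6 and 19.1 CPM in TFEB-TG libraries, against 6.05, 6.31, 5.66, 7.17 and 5.10 CPM in TFEB-wt libraries (2.68 ± 0.46, edgeR adjusted p = 0.00690). Gtf3c5 was at -1.35 ± 0.17 and Mrps2 at -0.98 ± 0.17 without Cre. After the removal, Gm10134 alone was left of the 5 genes, and it was at -1.01 ± 0.23 without Cre (edgeR adjusted p = 0.289). With the cassette list taken at an unadjusted p under 0.05, 0 were left.

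The difference itself, the TFEB effect minus the cassette effect, was tested as an interaction and called 0 of 12795 genes (0.0%), with a smallest adjusted p of 0.9999 and 136 genes (1.06%) at an unadjusted p under 0.05 (edgeR). DESeq2 called 0 and had 154. Since Tfeb was also higher in TFEB-TG Cre-neg libraries, the removal and this test also subtract any difference that goes with that Tfeb. How much that is was not tested. Tfeb was at 1.91 ± 0.63 in this test, with a 95% interval of 0.61 to 3.20, so that its excess over the Cre-neg difference did not pass the adjustment either. With genotype and number as a block, since libraries of the same label pair, Tfeb was at 1.75 ± 0.38 (edgeR adjusted p = 0.619). The values that follow are without the block. Gfi1b was at -0.33 ± 0.73 (-1.81 to 1.15), Mrps2 at -0.20 ± 0.24 (-0.68 to 0.28) and Gtf3c5 at 0.25 ± 0.24 (-0.24 to 0.74). The kallikrein gene Klk1b11 was at 5.65 ± 1.56, the co-stimulatory receptor gene Cd28 at 1.23 ± 0.47 and Cd4 at 0.92 ± 0.35, none of them called.

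To show the element through which TFEB is known to act, 4 promoters are printed from RefSeq (GRCm38.p6), each from 250 bases before to 50 after the start site, with every CACGTG in capitals. Of the 9 genes fixed for description here 3 hold it, Lamp1, Mcoln1 and Ctsd, which are printed as examples of the motif. The other 6, Gpnmb among them, hold none, and neither does Gfi1b, the call with the smallest p.
Lamp1, chr8:13158911-13159210, plus strand: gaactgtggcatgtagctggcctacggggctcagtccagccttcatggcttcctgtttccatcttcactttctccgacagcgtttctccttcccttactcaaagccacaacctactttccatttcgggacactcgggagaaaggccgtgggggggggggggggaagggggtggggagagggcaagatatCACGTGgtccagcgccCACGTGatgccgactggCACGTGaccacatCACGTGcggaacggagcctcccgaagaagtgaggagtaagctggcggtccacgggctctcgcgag
Mcoln1, chr8:3500269-3500568, plus strand: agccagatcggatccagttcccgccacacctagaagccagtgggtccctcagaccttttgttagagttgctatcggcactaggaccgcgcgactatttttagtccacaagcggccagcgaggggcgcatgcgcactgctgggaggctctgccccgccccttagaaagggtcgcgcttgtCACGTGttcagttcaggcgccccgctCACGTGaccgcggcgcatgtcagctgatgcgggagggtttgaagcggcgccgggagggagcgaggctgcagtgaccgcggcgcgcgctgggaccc
Ctsd, chr7:142387778-142388077, minus strand: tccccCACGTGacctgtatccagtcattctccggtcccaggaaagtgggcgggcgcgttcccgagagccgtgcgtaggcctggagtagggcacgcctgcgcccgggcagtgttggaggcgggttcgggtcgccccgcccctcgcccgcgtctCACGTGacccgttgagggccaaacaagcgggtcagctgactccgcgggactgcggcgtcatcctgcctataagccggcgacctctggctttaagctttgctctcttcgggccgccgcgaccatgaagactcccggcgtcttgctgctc
Gfi1b, chr2:28621933-28622232, minus strand: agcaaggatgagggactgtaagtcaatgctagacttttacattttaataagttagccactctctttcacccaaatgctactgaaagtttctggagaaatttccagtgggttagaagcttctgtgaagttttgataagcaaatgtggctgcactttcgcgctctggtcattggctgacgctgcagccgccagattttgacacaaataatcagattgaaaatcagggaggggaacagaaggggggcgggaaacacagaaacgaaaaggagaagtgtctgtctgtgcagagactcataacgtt
The Lamp1 window holds 4 copies, starting 61, 45, 28 and 15 bases before the start site, Mcoln1 holds 2 (71 and 45 bases before) and Ctsd 2 (245 and 98 bases before). CACGTG reads the same on both strands and was searched without mismatch. Of 9941 measured genes with a window, 1173 (11.8%) held it, among them 12 of 36 lysosomal hydrolases (33.3%), 8 of 23 lysosomal membrane and channel genes (34.8%), 4 of 12 proton pump genes (33.3%) and 5 of 36 autophagy genes (13.9%). None of the 4 called genes with a window held it. The median log2 fold change was -0.00476 over genes with the motif and -0.00531 over genes without it. A match is a run of letters and not a bound site, and the absence of a match concerns these windows only.

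Lysosomal genes were described as a group although none but Tfeb of the related lists was called. Of 46 measured lysosomal hydrolases 0 were called, 1 was higher and 5 were lower at an unadjusted p under 0.05 (edgeR), against 2.81% and 1.7% of all genes. Their median was -0.07, beside -0.00415 over all genes. The median was -0.02 over 27 lysosomal membrane and channel genes, -0.03 over 18 subunits of the v-ATPase, the proton pump that acidifies lysosomes, and -0.03 over 44 autophagy genes, with 0 called in each. The TFE family and mTORC1 feedback list, which includes Tfeb, had a median of 0.10 over 15 genes.

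Ctsd, the aspartic protease cathepsin D, had 7812, 6190, 9377 and 7488 CPM in mac-TFEB libraries, against 5092, 6115, 5578, 5748 and 6520 CPM in CX3CR1-Cre libraries. Mac-TFEB library 2 lay within the CX3CR1-Cre range and the other 3 above it. The difference was 0.41 ± 0.17, with a 95% interval of 0.06 to 0.76 (edgeR adjusted p = 0.9999). Gpnmb, a transmembrane glycoprotein of lysosomes and a known TFE target, had 789, 620, 1375 and 832 CPM in mac-TFEB libraries, against 278, 533, 255, 566 and 598 CPM in CX3CR1-Cre libraries. All mac-TFEB libraries were above all CX3CR1-Cre libraries, by 1.02 ± 0.45 (95% interval 0.10 to 1.94, edgeR adjusted p = 0.9999). Without Cre, TFEB-TG over TFEB-wt, Ctsd was at 0.11 ± 0.17 and Gpnmb at 0.42 ± 0.45. Gpnmb ran from 349 to 1504 CPM in TFEB-TG Cre-neg and from 345 to 848 CPM in TFEB-wt Cre-neg libraries.

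Other genes with known TFEB links lay closer to 0. The lysosomal acid lipase gene Lipa averaged 989.5 CPM in mac-TFEB and 973 CPM in CX3CR1-Cre libraries (0.02 ± 0.11, 95% interval -0.21 to 0.25). The autophagy receptor gene Sqstm1 averaged 584 CPM in mac-TFEB and 535 CPM in CX3CR1-Cre libraries (0.13 ± 0.12, -0.11 to 0.37). Lamp1, a major glycoprotein of the lysosomal membrane, averaged 274 CPM in mac-TFEB and 236 CPM in CX3CR1-Cre libraries (0.21 ± 0.20, -0.20 to 0.63). The calcium channel gene Mcoln1 averaged 12.8 CPM in mac-TFEB and 11.4 CPM in CX3CR1-Cre libraries (0.17 ± 0.28, -0.40 to 0.74). The interval of Lipa was the narrowest of the 4 and that of Mcoln1, the least abundant, the widest.

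The list members with the smallest p ran in both directions. Scpep1, a serine carboxypeptidase of lysosomes, had 537, 489, 560.1 and 495 CPM in mac-TFEB libraries, against 645, 624, 755, 634 and 680.5 CPM in CX3CR1-Cre libraries (-0.36 ± 0.10, edgeR adjusted p = 0.604), and Plbd1, a phospholipase B-like protein, averaged 152 and 223 CPM (-0.56 ± 0.20). Slc36a1, a proton-coupled amino acid carrier of the lysosome, had 16.9 to 22.4 CPM in mac-TFEB and 6.98 to 14.7 CPM in CX3CR1-Cre libraries (0.68 ± 0.27), and Cln3, a lysosomal membrane protein, was at -0.16 ± 0.08. Of the v-ATPase, the subunits Atp6v0a1 (0.22 ± 0.12) and Atp6v0d2 (0.98 ± 0.54), and of autophagy the phosphoinositide-binding Wipi2 (0.36 ± 0.17) and Tecpr1 (0.41 ± 0.21), which takes part in autophagosome fusion, had the smallest p of their lists. None of the 8 passed the adjustment. Without Cre, TFEB-TG over TFEB-wt, Scpep1 was at -0.20 ± 0.10, Plbd1 at -0.41 ± 0.20, Slc36a1 at 0.35 ± 0.26 and Cln3 at -0.05 ± 0.08. In that comparison Atp6v0a1 was at 0.03 ± 0.12, Atp6v0d2 at 0.51 ± 0.54, Wipi2 at 0.09 ± 0.17 and Tecpr1 at 0.05 ± 0.21.

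**Figure D3:**
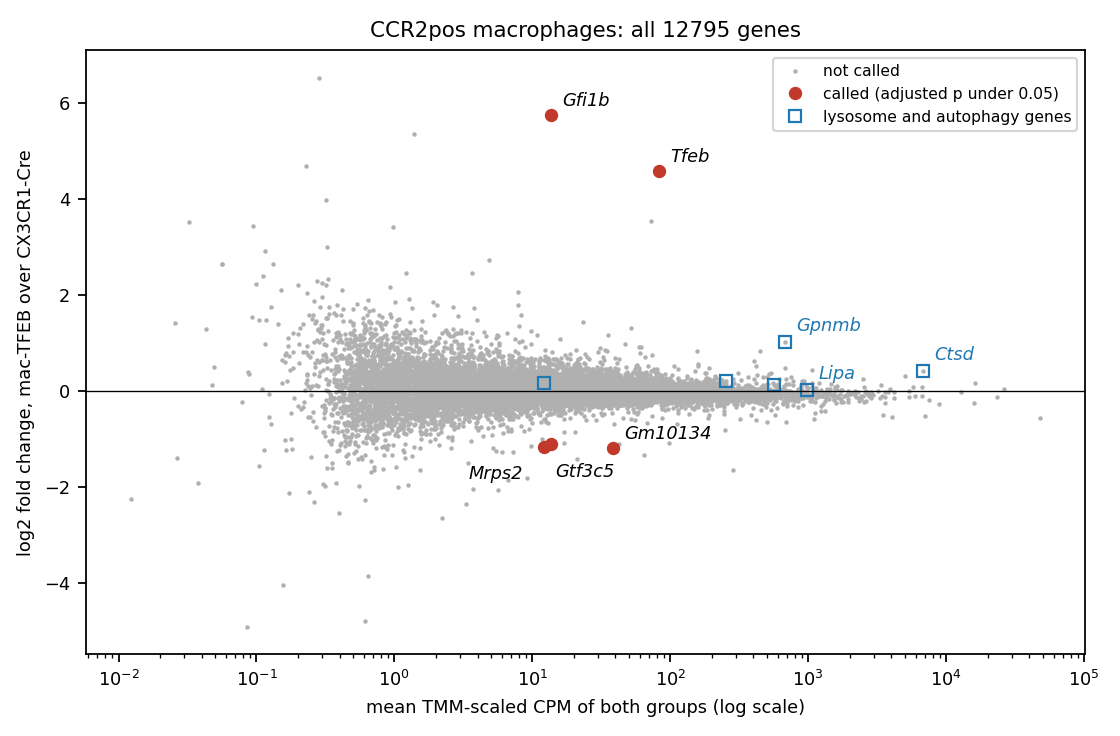
Log2 fold change of mac-TFEB over CX3CR1-Cre (y axis) against the mean TMM-scaled CPM of both groups (x axis, log scale) for all 12795 genes, with the 5 called genes filled and the 6 lysosome and autophagy genes fixed for description as open squares. Gpnmb at 1.02 and Ctsd at 0.41 are above most genes of their abundance, and the other 4 squares lie between 0.02 and 0.21.

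Other genes that did not pass the threshold were named after their values were seen. Klk1b11, of a family of near-identical kallikrein genes between which reads may be split, had 0.838, 2.46, 5.30 and 2.23 CPM in mac-TFEB libraries and 0.356 CPM in CX3CR1-Cre library 3, and was listed at 0 in the other 4 CX3CR1-Cre libraries (edgeR adjusted p = 0.0927). It was called under 6 of 20 alternatives, among them DESeq2, limma-voom and leaving out CX3CR1-Cre library 3. Tmem176a, an ion channel-like protein of antigen-presenting cells, had 423, 528, 451 and 499.9 CPM in mac-TFEB libraries, against 655, 655, 708, 629 and 722 CPM in CX3CR1-Cre libraries (-0.50 ± 0.11, edgeR adjusted p = 0.0991). The groups did not overlap, and Tmem176a was called under 5 of 21 alternatives, among them DESeq2 and limma-voom (adjusted p of 0.00676 to 0.562 over all 21). Its neighbour Tmem176b was at -0.42 ± 0.10 (edgeR adjusted p = 0.266), and since the 2 genes overlap on opposite strands and the libraries keep no strand, reads of the overlap cannot be told apart. The extracellular glutathione peroxidase gene Gpx3 had 455, 666, 580.4 and 595 CPM in mac-TFEB libraries, against 310.4, 390.1, 282, 352 and 272 CPM in CX3CR1-Cre libraries (0.84 ± 0.20, edgeR adjusted p = 0.220). Vnn3, a vanin-family pantetheinase gene, was at -1.14 ± 0.26 (edgeR adjusted p = 0.135) and Pfkfb4, a regulator of glycolysis, at -0.56 ± 0.14 (edgeR adjusted p = 0.220). The TGF-beta family gene Gdf3 was at -1.07 ± 0.29 (edgeR adjusted p = 0.462), and at -1.05 ± 0.29 without Cre. DESeq2 called Gpx3, Vnn3, Tmem176b and Gdf3 as well, and limma-voom Vnn3 and Pfkfb4. The other genes of this paragraph also have values without Cre, TFEB-TG over TFEB-wt. Tmem176a was at -0.33 ± 0.11, Tmem176b at -0.18 ± 0.10 and Pfkfb4 at -0.30 ± 0.14. Gpx3 was at 0.30 ± 0.20, Vnn3 at -0.42 ± 0.25 and Klk1b11 at -0.30 ± 1.04.

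Of 15 measured co-stimulation and co-inhibition genes 0 were called, 6 were positive and the median was -0.07. Their values ran from -1.21 to 1.44. Cd28, known from T cells as the receptor of CD80 and CD86, had 25.4, 41.8, 52.9 and 14.97 CPM in mac-TFEB libraries, against 13.2, 15.5, 14.4, 9.96 and 9.15 CPM in CX3CR1-Cre libraries (1.44 ± 0.33, edgeR adjusted p = 0.183). Mac-TFEB library 4 lay within the CX3CR1-Cre range and the other 3 above it. Cd28 was called under 3 of 21 alternatives, namely DESeq2, a block by replicate number and leaving out mac-TFEB library 4 (adjusted p of 0.0125 to 1.0 over all 21). Cd4, the helper T cell co-receptor gene, had 76.0, 91.4, 86.9 and 53.0 CPM in mac-TFEB libraries, against 28.4, 63.5, 54.4, 36.4 and 40.0 CPM in CX3CR1-Cre libraries (0.79 ± 0.24, edgeR adjusted p = 0.775). Cd3e averaged 7.95 CPM in mac-TFEB and 8.09 CPM in CX3CR1-Cre libraries. It stood at 28.5 CPM in mac-TFEB library 2, which had the most Cd4, and at 1.26 CPM in mac-TFEB library 3, which had the most Cd28. Of the 19 T and NK cell genes measured 14 were positive with a median of 0.39. The replicate SD of that median, its spread between libraries within the groups, was 1.60. Their summed level ran from 109.5 to 440.4 CPM in mac-TFEB and 83.9 to 284.5 CPM in CX3CR1-Cre libraries. Without both libraries above 20 CPM of Cd3e, Cd28 was at 1.38. The part of T cells in the Cd28 and Cd4 values was not tested.

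MHC class II genes, whose products present peptides to helper T cells, had a median of -0.25 over 14 measured members, beside -0.00415 over all genes. None was called, and 6 were lower at an unadjusted p under 0.05 (edgeR), where 1.7% of all genes were. H2-Aa, the alpha chain of I-A, had 5700, 7241, 4729 and 5337 CPM in mac-TFEB libraries, against 9379, 7410, 8408, 8517 and 7270.0 CPM in CX3CR1-Cre libraries. The groups of H2-Aa did not overlap, though the highest mac-TFEB and the lowest CX3CR1-Cre library were close (-0.51 ± 0.16, edgeR adjusted p = 0.782). Cd74, the invariant chain gene, averaged 38446 ± 8333 CPM in mac-TFEB and 56730 ± 7844 CPM in CX3CR1-Cre libraries (SD, n = 4 and 5) and was at -0.56 ± 0.19 (edgeR adjusted p = 0.983). Among libraries with Xist alone H2-Aa (adjusted p = 0.0385) and Cd74 (adjusted p = 0.0273) were called by edgeR, and under none of the other 20 alternatives. The replicate SD of the list's median was 0.18 over mac-TFEB and CX3CR1-Cre libraries. Without Cre the list's median was -0.17, TFEB-TG over TFEB-wt. Dendritic cell genes, summed over 20 members, ran from 2316 to 3211 CPM in mac-TFEB and from 2916 to 3697 CPM in CX3CR1-Cre libraries, and B cell genes from 884 to 1051 and from 898 to 1395 CPM. Their part in the MHC class II values was not tested, and in sorted bulk libraries fewer cells of a type and less RNA per cell cannot be told apart.

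Proliferation genes had the largest median of the pathway lists, 0.46 over 40 members, of which 37 were positive, 15 were higher at an unadjusted p under 0.05 (edgeR; 2.81% of all genes were) and 0 were called. Mki67, a nuclear protein of dividing cells, had 41.5, 22.5, 54.5 and 56.3 CPM in mac-TFEB libraries, against 22.8, 24.4, 19.7, 20.6 and 32.4 CPM in CX3CR1-Cre libraries (0.86 ± 0.28, edgeR adjusted p = 0.891). Mac-TFEB library 2 lay within the CX3CR1-Cre range, and Mki67 was called among libraries with Xist alone (edgeR adjusted p = 0.0273) and under none of the other 20 alternatives. Kif11, a motor of the mitotic spindle, had 12.6, 9.97, 14.99 and 22.5 CPM in mac-TFEB libraries, against 7.28, 6.30, 7.76, 4.75 and 7.18 CPM in CX3CR1-Cre libraries (1.18 ± 0.32, edgeR adjusted p = 0.490). The replicate SD of the list's median was 0.34 over mac-TFEB and CX3CR1-Cre libraries. The list's summed level overlapped, at 922.6 to 1718 CPM in mac-TFEB and 830.2 to 1259 CPM in CX3CR1-Cre libraries. Without Cre the list's median was 0.52, Mki67 was at 0.83 ± 0.28 and Kif11 at 0.93 ± 0.32, TFEB-TG over TFEB-wt.

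Of the resident cardiac macrophage list, with a median of -0.21 over 18 genes and 0 called, the hyaluronan receptor gene Lyve1 had 213, 187, 152 and 173 CPM in mac-TFEB libraries, against 233, 233, 237, 396 and 479 CPM in CX3CR1-Cre libraries (-0.80 ± 0.30). The phosphatidylserine receptor gene Timd4 averaged 26.8 ± 7.77 CPM in mac-TFEB and 57.7 ± 32.2 CPM in CX3CR1-Cre libraries (SD, n = 4 and 5; -1.10 ± 0.49). For both genes CX3CR1-Cre libraries 4 and 5 were far above the other 3. Without Cre the list's median was -0.20, Lyve1 was at -0.23 ± 0.29 and Timd4 at -0.45 ± 0.47, TFEB-TG over TFEB-wt. The median of 21 monocyte and monocyte-derived genes was 0.07 and that of 16 macrophage identity genes -0.08, with 0 called in each.

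In the remaining pathway lists Gfi1b, among 31 macrophage lineage transcription factors (median 0.01), was the only call. Among efferocytosis and complement genes, the membrane attack component C6 had 6.44, 3.82, 4.19 and 1.90 CPM in mac-TFEB libraries, against 8.57, 7.09, 12.5, 26.1 and 17.1 CPM in CX3CR1-Cre libraries (-1.80 ± 0.53, edgeR adjusted p = 0.755). Of the lipid genes, the fatty acid and oxidized lipid receptor Cd36 had 263 to 368 CPM in mac-TFEB and 388 to 496 CPM in CX3CR1-Cre libraries (-0.49 ± 0.19), and the cholesterol exporter Abca1 was at 0.28 ± 0.14. The chemokine genes Ccl12, a ligand of CCR2, and Cxcl13, an attractant of B cells, were at -0.59 ± 0.21 and -1.33 ± 0.52. Without Cre, TFEB-TG over TFEB-wt, Ccl12 was at -0.38 ± 0.21 and Cxcl13 at -1.05 ± 0.51. In that comparison C6 was at -1.02 ± 0.49, Cd36 at -0.375 ± 0.19 and Abca1 at 0.17 ± 0.14. Of repair factors, the metalloproteinase inhibitor Timp2 was at 0.39 ± 0.14 and the EGF receptor ligand Ereg, at 1.51 and 0.332 CPM, at 2.18 ± 0.95. Medians were 0.01 for lipid handling, 0.06 for lipid-associated macrophage genes, 0.07 for inflammatory cytokines and NF-kB, 0.06 for repair and growth factors and -0.03 for efferocytosis and complement. They were -0.12 for the interferon response, 0.00400 for glycolysis, -0.08 for oxidative phosphorylation, -0.01 for antioxidant and NRF2 targets and -0.07 for ER chaperones. Dissociation and stress genes had a median of -0.000689. Of the other cell types, medians were -0.13 for cardiomyocyte, 0.25 for fibroblast, 0.27 for endothelial, 0.04 for neutrophil, 0.38 for mast cell and basophil, 0.00384 for B cell, -0.04 for dendritic cell and 0.05 for erythroid and platelet genes, and the mural list, summed at 19.1 to 46.8 CPM in mac-TFEB and 12.6 to 21.0 CPM in CX3CR1-Cre libraries, had the largest median of these (0.83). The replicate SD of the list median was 0.41 for fibroblast, 0.80 for endothelial, 0.36 for mast cell and basophil (4 genes measured) and 0.26 for mural genes. Gfi1b, which also stands in the erythroid and platelet list, was the only call among the 10 lists of other cell types.

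**Figure D4:**
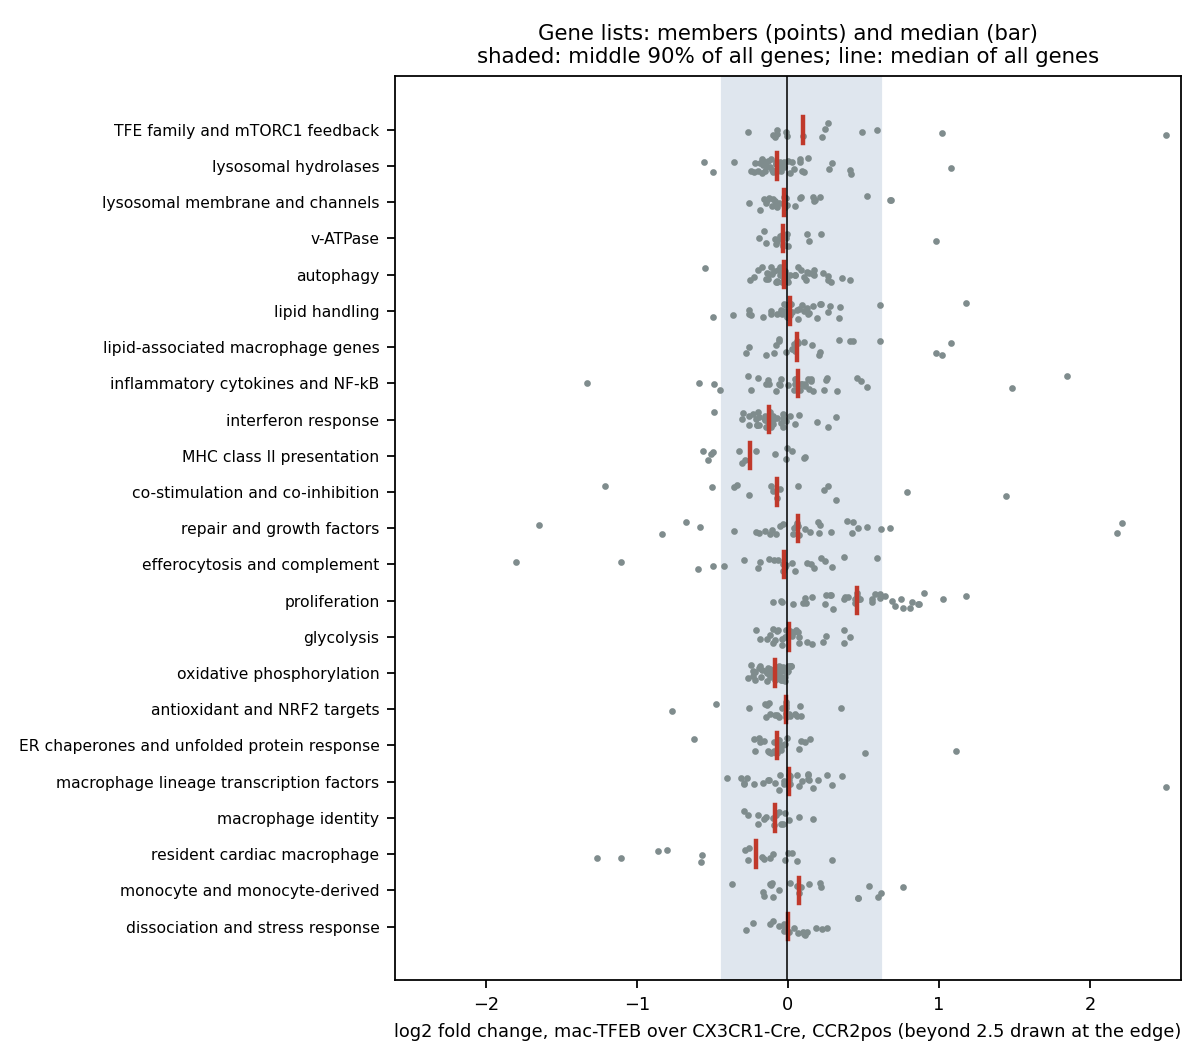
Log2 fold change of mac-TFEB over CX3CR1-Cre in CCR2pos cells (x axis) for each measured member (points) of the pathway and cell state lists (y axis), with the list median as a bar, the median of all genes as a line and the middle 90% of all genes, -0.43 to 0.61, shaded. Proliferation (0.46) has the highest and MHC class II presentation (-0.25) the lowest median, and the lysosomal, v-ATPase and autophagy medians lie between -0.07 and -0.02.

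How much could have been missed is given by the error. Over 7262 genes with a mean of at least 10 CPM the median standard error was 0.149, and 7021 of them (96.7%) had a 95% interval within a 2-fold difference in either direction. Only 19 of the 7262 lay beyond a 2-fold difference.

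The same comparison in the CCR2neg fraction of the same labels called 170 genes (1.33%). Under other settings it called between 155, without CCR2pos CX3CR1-Cre library 1 in the shared fit, and 1351 with limma-voom. The difference between the fractions was tested as an interaction, CCR2pos minus CCR2neg, and called 0 genes (0.0%), with a smallest adjusted p of 0.9998 and 496 (3.88%) at an unadjusted p under 0.05 (edgeR). DESeq2 called 0 and had 537. With genotype and number as a block, since libraries of the same label pair across fractions, it called Cd300lf, an immunoglobulin-like receptor of myeloid cells, and Cd200r4, of the CD200 receptor family, both at -0.88 ± 0.16 (edgeR adjusted p = 0.0405). Cd300lf had 67.8, 69.7, 103 and 101 CPM in CCR2pos mac-TFEB libraries, against 51.8, 73.6, 62.9, 69.0 and 58.4 CPM in CX3CR1-Cre libraries, while in CCR2neg cells it had 83.8, 96.1, 156 and 155 CPM in mac-TFEB and 39.0 to 69.9 CPM in CX3CR1-Cre libraries.

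The 116 genes called higher in CCR2neg cells (0.907%) had a median of 0.28 in CCR2pos cells and 0.83 in CCR2neg cells, and 109 of them were positive in CCR2pos cells. The 54 genes called lower (0.422%) had medians of -0.25 in CCR2pos and -0.85 in CCR2neg cells, with 52 negative in CCR2pos cells. These 170 genes are those of edgeR alone. They were chosen by their CCR2neg values and the libraries of both fractions carry the same labels, so these values are a description only. Ctsd was at 0.41 ± 0.17 in CCR2pos and 1.17 ± 0.17 in CCR2neg cells, with a difference of -0.76 ± 0.24. For Lipa the values were 0.02 ± 0.11 and 0.58 ± 0.11, with a difference of -0.55 ± 0.16, and for Gpnmb 1.02 ± 0.45 and 2.24 ± 0.46, with a difference of -1.22 ± 0.64. H2-Aa was at -0.51 ± 0.16 in CCR2pos and -1.20 ± 0.16 in CCR2neg cells (difference 0.69 ± 0.22), and Plbd1 at -0.56 ± 0.20 and -1.38 ± 0.21 (difference 0.82 ± 0.29). Other named genes differed less in CCR2neg cells. Among them, Gdf3 was at -1.07 ± 0.29 in CCR2pos and -0.32 ± 0.28 in CCR2neg cells. Slc36a1 was at 0.68 ± 0.27 and -0.08 ± 0.26, and Cd36 at -0.49 ± 0.19 and -0.06 ± 0.19. None of these differences was called, with or without the block. With the block the differences were -0.74 ± 0.16 for Ctsd (edgeR adjusted p = 0.132) and -1.02 ± 0.38 for Gpnmb (edgeR adjusted p = 0.494). They were 0.70 ± 0.16 for H2-Aa (edgeR adjusted p = 0.132) and 0.79 ± 0.20 for Plbd1 (edgeR adjusted p = 0.198). Tfeb itself was at 4.58 ± 0.48 in CCR2pos and 4.57 ± 0.48 in CCR2neg cells (difference 0.02 ± 0.62).

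**Figure D5:**
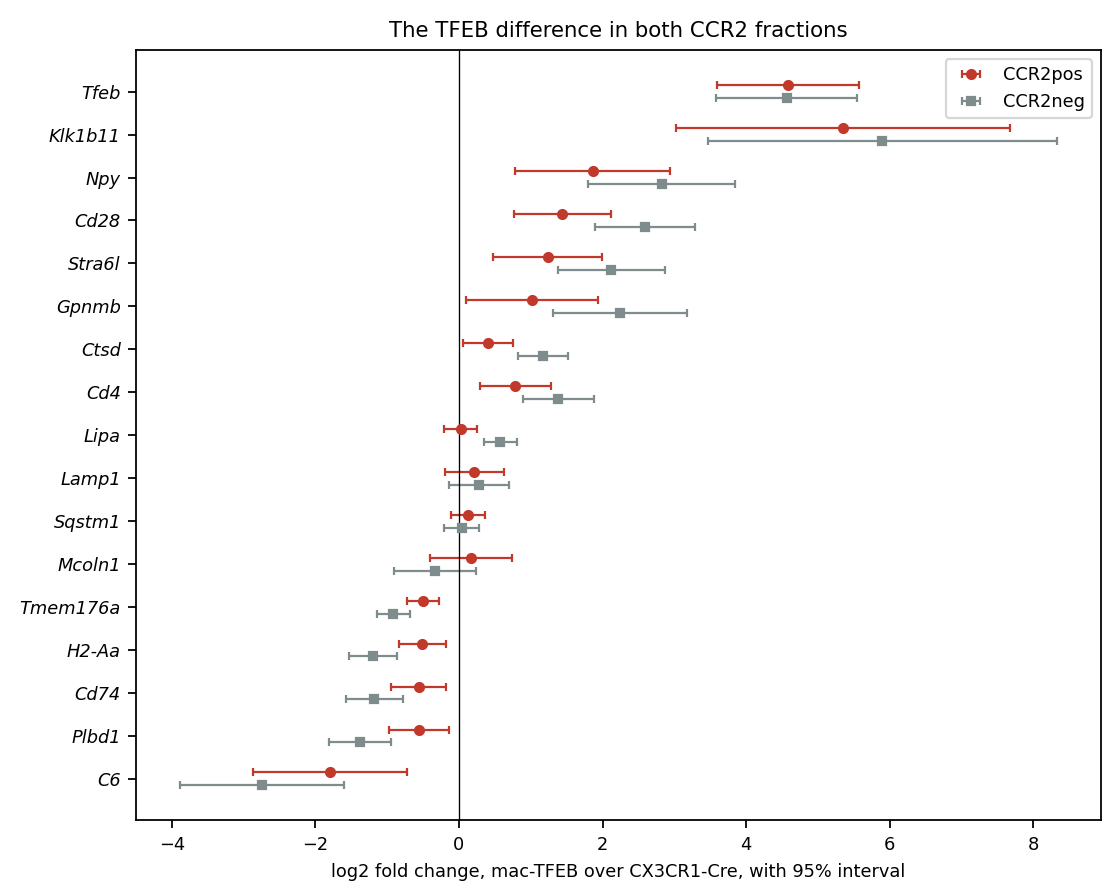
Log2 fold change of mac-TFEB over CX3CR1-Cre with its 95% interval (x axis) for named genes (y axis) in CCR2pos (circles) and CCR2neg cells (squares). The values of Tfeb coincide, while those of Ctsd, Lipa, Gpnmb, Cd28, H2-Aa, Cd74 and Plbd1 are nearer 0 in CCR2pos cells. The differences were not called. Gdf3, Slc36a1 and Cd36, which differed less in CCR2neg cells, are not drawn.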

How the data were processed

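RNA from flow-sorted cardiac macrophages was profiled by polyA sequencing, with 12 cycles of amplification and single reads of 50 bases kept without strand information, per the labels' protocols. The values are unnormalized read counts by gene, in a single table that the authors deposited. The submitters' processing notes list the build GRCm38, HTSeq and TopHat2 2.0.10 among other tools, without their roles or parameters. The table lists 12795 genes, 11975 of them protein coding. What it was filtered on is not stated. Each column's name gave its sample, and the labels gave its group. Positions come from GENCODE vM21 (GRCm38), in which 12783 identifiers were found.

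Genes were tested with edgeR 4.0.16 under R 4.3.3, using TMM factors, quasi-likelihood F-tests and Benjamini-Hochberg adjustment. All 36 libraries entered 1 model of 8 group means, so that groups share 1 estimate of the spread (common dispersion 0.0943). The contrasts were mac-TFEB over CX3CR1-Cre, TFEB-TG over TFEB-wt Cre-neg, their difference, and CCR2pos minus CCR2neg. Standard errors were taken as log2 fold change divided by the root of F. The script was tested on simulated counts. In single libraries 15.6 to 16.9% of counts (mac-TFEB) and 17.04 to 18.4% (CX3CR1-Cre) fell on the 10 highest genes. TMM factors ran from 0.9805 to 1.001 in mac-TFEB and from 0.9395 to 0.958 in CX3CR1-Cre libraries. Neither measure overlapped between the groups. Mitochondrial genes held 0.460 to 0.963% of counts over both groups. All pairs of libraries within the 2 groups differed by more than sampling noise, and each was counted once.

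Gene lists (33 lists, 742 of 780 symbols measured) are described by counts and medians, without a set test. Members, lists and named genes were chosen with earlier results of these data known. Named by rule are 9 fixed genes (Tfeb, Cx3cr1, Ccr2, Lipa, Gpnmb, Sqstm1, Lamp1, Mcoln1, Ctsd), up to 12 called genes per direction with at least 10 CPM in a group and without gene models, and per list the called members or up to 2 with the smallest p, of which part is given. Other genes were named with their values in view, as the text says, and neighbours of Gfi1b, genes beside a list and library checks were added in the same way.

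Replicate numbers were checked on deviations from group means. Within a genotype, libraries of the same number correlated at 0.333 to 0.475 (mac-TFEB and Cre-neg) and 0.243 to 0.391 (CX3CR1-Cre and Cre-neg). Between fractions they correlated at 0.383 to 0.5 (mac-TFEB) and 0.175 to 0.264 (CX3CR1-Cre). The 9 labels were therefore also used as a block in both interactions. Interaction values are from the fit without this block unless the block is named. Alternatives were DESeq2 size factors, DESeq2 1.42.0, limma-voom (limma 3.58.1), filters, blocks, an Xist term (limit 10 CPM), subsets of libraries and leaving out each library.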

Additional observations from a re-analysis of the deposited data

Results flagged for a closer look

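Single libraries stood apart from the others of their group for 6 of 102 combinations of a named gene and a group (5.88%), where chance gives about 1 in 20. Vnn3 was at 9.01 CPM in mac-TFEB library 1, with the other 3 mac-TFEB libraries between 5.05 and 5.24 CPM. Cd14, the lipopolysaccharide co-receptor gene, was at 6789 CPM in mac-TFEB library 2, with the other 3 between 8421 and 8589 CPM. Among CX3CR1-Cre libraries, Slc36a1 was at 6.98 CPM in library 3 (12.9 to 14.7 CPM in the other 4), Tecpr1 at 35.4 CPM in library 3 (16.8 to 22.1 CPM) and Wipi2 at 28.0 CPM in library 1 (20.2 to 22.3 CPM). Klk1b11 was at 0.356 CPM in CX3CR1-Cre library 3 and listed at 0 in the other 4.

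The TFEB difference was smaller in CCR2pos than in CCR2neg cells for 2 genes when the 9 labels were kept as a block, by a test of the difference itself. Cd300lf differed by -0.88 ± 0.16 and Cd200r4 by -0.88 ± 0.16 on the log2 scale (edgeR adjusted p = 0.0405 for both). Without the block neither passed. Cd200r4 had 33.2, 35.9, 70.0 and 48.0 CPM in CCR2pos mac-TFEB and 30.8 to 40.1 CPM in CCR2pos CX3CR1-Cre libraries, and 40.3, 56.2, 96.2 and 77.8 CPM in CCR2neg mac-TFEB and 22.6 to 36.4 CPM in CCR2neg CX3CR1-Cre libraries.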

How the results depend on the processing

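Gfi1b, Mrps2 and Gtf3c5 were called under all 21 alternatives, Tfeb under 20 and Gm10134 under 11. Among the alternatives, the fit without an expression filter repeats the main fit, whose filter kept all 12795 genes. The count of 5 calls (2 higher, 3 lower, 1 left after removing cassette calls) was 14 (5, 9, 8) with DESeq2, 9 (6 lower, 5 left) with limma-voom, 9 (6 higher, 5 left) with an Xist term, 3 (1 higher) in a fit to the 9 libraries, and, chosen after seeing the data, 9 (6 lower, 4 left) in a fit to the 18 CCR2pos libraries and 36 (18, 18, 31) among libraries with Xist alone, where the cassette called 12 rather than 4. Leaving out 1 library gave 4 to 5 calls, 2 to 3 in each direction and 0 to 1 left, and a cassette list at unadjusted p left 0. DESeq2 added Cd28, Gbgt1, Gdf3, Gpx3, Klk1b11, Olfm1, Tmem176a, Tmem176b and Vnn3, limma-voom Klk1b11, Pfkfb4, Tmem176a and Vnn3, the Xist term Fam20c, Klk1b11, Npy and Stra6l, and the fit to 18 libraries Gbgt1, Ncapd2, Pfkfb4 and Tmem176a. In CCR2neg cells the count of 170 was 318 with DESeq2, 1351 with limma-voom, 441 with an Xist term, 810 among libraries with Xist alone, 306 with a block by number and 408 with a random effect. The cause of these shifts was not tested.

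Numbers did not pair libraries across genotypes (correlations of -0.204 to 0.0709, 0 of 4 best with their own number). A replicate block by number gave 12 calls (5, 7, 5 left; cassette 9), and a random effect of genotype and number 5 lower and 3 left. The block of 9 labels called 2 genes between the fractions and 0 beyond the cassette. It was fitted for these interactions alone, since the other contrasts lie between labels. The sign turned for uncalled genes. Among libraries with Xist alone Cx3cr1 was at 0.0498, Ccr2 at 0.13, Lipa at -0.00224, Sqstm1 at -0.0288, Mcoln1 at -0.60 and Tecpr1 at -0.12. Leaving out 1 library gave -0.331 to 0.0732 for Ccr2 (above 0 without mac-TFEB 1), -0.0382 to 0.0839 for Lipa (below 0 without mac-TFEB 3 and, at -0.00259, without CX3CR1-Cre 1) and -0.19 to 0.358 for Mcoln1 (below 0 without mac-TFEB 2). Mcoln1 was at -0.26 without both libraries above 20 CPM of Cd3e. None of 66 list medians compared, those of the 33 lists with DESeq2 and with limma-voom, moved beyond the replicate SD. These fits use the same libraries as the main fit, so they do not probe the spread between libraries. List medians were not computed under the other alternatives. Whether counting error or spread between libraries limits single genes was not tested.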
